A study of Mus musculus with 5 samples.

Results

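Semaphorins, ephrins and their receptors were examined in embryos with and without Oct4. The 10 genes are 3 semaphorins (Sema3a, Sema6a and Sema6d), both neuropilins (Nrp1 and Nrp2), 2 ephrins (Efna1 and Efnb1) and 3 Eph receptors (Epha1, Epha2 and Epha4). They were taken by gene name from a count table of 49671 genes, and all 10 were found. They were chosen with results of the SO− against SO+ comparison already known, so their own differences between genotypes are given as description, without p-values.

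SO+ embryos (n = 2) carried no Sox2Cre transgene and had a floxed Oct4 allele beside an intact one (Sox2Cre-/-; Oct4 fl/+). SO− embryos (n = 3) carried Sox2Cre, and their Oct4 alleles were one floxed and one null (Oct4 fl/-). All were of mixed strain background. Each library was made from the dissected epiblast and visceral endoderm (VE) of a single embryo collected at about E6.75, according to the study's methods. The Sox2 promoter drives Cre mainly in the epiblast, so deletion is not driven in most of the VE, and both tissues are read together. Library totals were 27047148 and 27538119 counts for SO+ and lay between 1117566 and 4191498 for SO−. Both SO+ libraries carried one second sequencing index and all SO− libraries another, so index, depth and genotype cannot be told apart. Pou5f1, which encodes Oct4, was at 919.5 and 437.0 CPM (the count scaled to a common library total, with TMM factors) in SO+ embryos and at 28, 12.5 and 44.1 CPM in SO− embryos. In bulk tissue, fewer cells of a type and less RNA per cell cannot be told apart.

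Semaphorins are secreted or membrane-bound ligands that steer migrating cells and growing axons, mostly by repulsion. Class 3 semaphorins are secreted and bind neuropilins, which pass the signal on through plexins, while class 6 semaphorins span the membrane and bind plexins directly. Neuropilins also act as co-receptors for vascular endothelial growth factors. Ephrins are membrane-anchored ligands of the Eph receptor tyrosine kinases, and both sides signal when cells touch, which sorts cells and sharpens boundaries between tissues.

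The upstream DNA of 4 of the genes is shown here because their transcripts had the patterns described next: Sema3a, Nrp1 and Nrp2 were higher in every SO− embryo than in either SO+ embryo, and Epha1 was lower. Sequences are from RefSeq (GRCm38.p6), run 5′ to 3′ on the strand of the gene, lie upstream of the start RefSeq gives and hold no exon base of the gene. For Sema3a and Nrp1, GENCODE also has transcripts that start further upstream, so these stretches are intronic in those transcripts. Capitals mark CpG dinucleotides. The stretches are chr5:13396534-13396783 (plus strand) for Sema3a, chr8:128358823-128359072 (plus strand) for Nrp1, chr1:62703067-62703284 (plus strand) for Nrp2 and chr6:42373269-42373518 (minus strand) for Epha1.
Sema3a: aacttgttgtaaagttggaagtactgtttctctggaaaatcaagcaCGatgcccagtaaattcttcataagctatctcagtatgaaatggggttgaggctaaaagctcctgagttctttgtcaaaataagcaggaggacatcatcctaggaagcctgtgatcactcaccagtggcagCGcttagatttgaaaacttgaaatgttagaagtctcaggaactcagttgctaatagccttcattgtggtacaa
Nrp1: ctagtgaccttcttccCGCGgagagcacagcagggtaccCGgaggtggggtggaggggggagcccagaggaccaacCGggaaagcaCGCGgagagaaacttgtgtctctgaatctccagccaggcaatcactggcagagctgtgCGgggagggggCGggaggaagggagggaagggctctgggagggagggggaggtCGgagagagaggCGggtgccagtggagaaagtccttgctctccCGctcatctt
Nrp2: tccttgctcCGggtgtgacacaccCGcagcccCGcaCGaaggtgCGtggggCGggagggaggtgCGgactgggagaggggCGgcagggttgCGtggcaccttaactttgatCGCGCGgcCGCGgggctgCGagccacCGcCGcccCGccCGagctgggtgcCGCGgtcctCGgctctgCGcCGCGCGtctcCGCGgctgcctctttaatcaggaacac
Epha1: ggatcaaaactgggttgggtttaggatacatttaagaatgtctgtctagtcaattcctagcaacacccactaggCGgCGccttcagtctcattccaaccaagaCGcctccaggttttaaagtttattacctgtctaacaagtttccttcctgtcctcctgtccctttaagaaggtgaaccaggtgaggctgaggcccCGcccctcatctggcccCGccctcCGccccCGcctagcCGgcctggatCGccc

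In the 300-base window around each start (250 bases before and 50 after), Sema3a held 2 CpG dinucleotides, against 14 for Nrp1, 37 for Nrp2 and 14 for Epha1. The median over 32851 mouse windows was 7, and 14.1% of them held fewer than Sema3a. Windows were read for 9 of the 10 genes, with Sema6a left out, and 9 of the 11 windows held more CpG than the median. The exceptions were Sema3a and the second start of Sema6d. A set of 3 short motifs was searched on both strands of the 11 windows. The octamer ATGCAAAT, bound by POU factors such as Oct4, was in 0 of them, and in 1.74% of all windows. CATTGT, a core bound by Sox factors, was in the Sema3a window alone, and in 12.6% of all windows. The E-box CAGGTG was in 2, those of Epha1 and the second start of Sema6d, and in 20.2% of all windows. Reversed, CATTGT reads ACAATG and can share letters with the octamer. These are descriptions of letters, and a window without a match says nothing of binding elsewhere.

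Of the genes chosen at the start, those with the most transcript for their length in SO+ embryos were Epha1, Epha2 and Sema6a. In SO− embryos Epha1 and Sema6a were lower, Sema3a, near absent in SO+ embryos, was counted in every embryo, and both neuropilins and Efnb1 were higher. Levels are compared between genes as FPKM, the CPM divided by the length of all exons of the gene in kilobases. Epha1 averaged 45.7 FPKM in SO+ embryos, Epha2 19.4 and Sema6a 12.7, and the embryo ranges of these 3 genes did not overlap. Efnb1 (5.69 FPKM) and Efna1 (4) came next, with overlapping ranges. Epha4 (1.21), Sema6d (1.01), Nrp1 (0.723) and Nrp2 (0.292) were low, and Sema3a was last at 0.00398 FPKM. With the longest transcript in place of all exons, the mean over the 5 embryos moved from 1.75 to 4.7 FPKM for Nrp1 and from 0.446 to 1.04 FPKM for Sema3a, and Nrp1 (1.94 FPKM) and Sema6d (1.65) then stood above Epha4 (1.54) in SO+ embryos. Among 12059 tested genes with a known length, 88.9% had a lower SO+ level than Epha1. Sema3a passed the filter on low counts through its SO− counts alone, so its SO+ place among tested genes is not read.

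The order differed in SO− embryos. Epha1 (25.9 FPKM) and Epha2 (23) then had overlapping ranges, and Efnb1 (10.4) and Efna1 (6.2) stood above Sema6a (6.15), again with ranges that met. Nrp1 averaged 2.44 FPKM and stood sixth, after the eighth place in SO+ embryos, a move that depends on exon length: by the longest transcript it was sixth in both genotypes. Sema3a remained lowest (0.74 FPKM), but its range overlapped that of Nrp2 (1.15 FPKM).

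**Figure D1:**
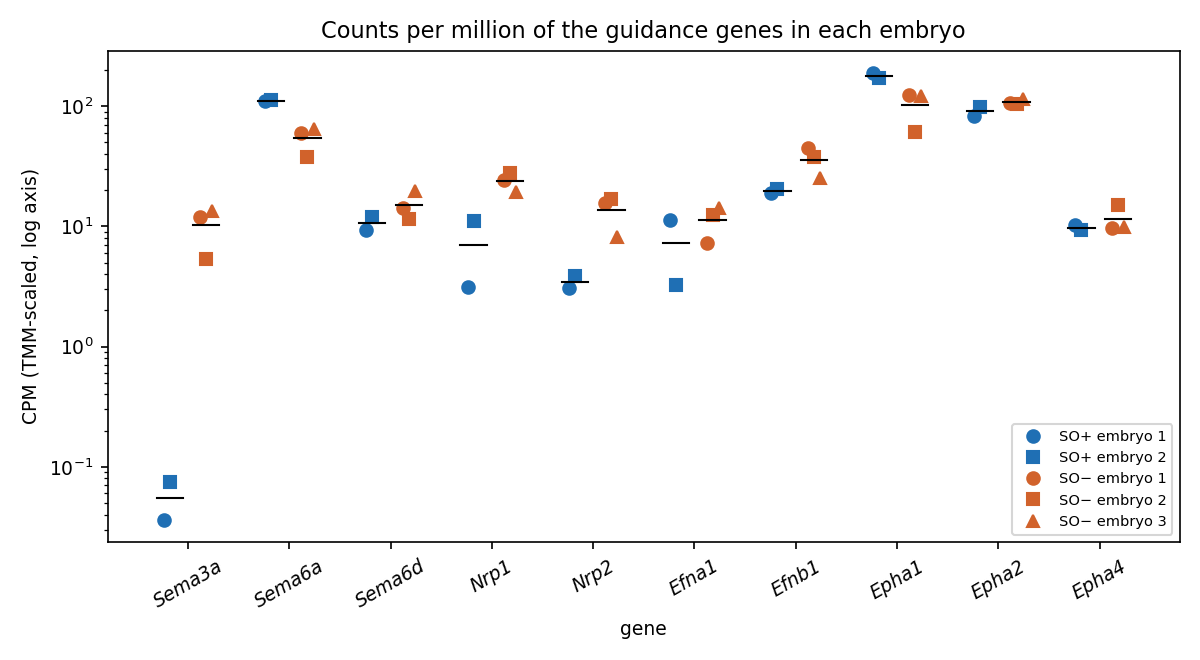
Transcript level of the 10 guidance genes in each embryo, as CPM on a log axis, with SO+ embryos in blue, SO− embryos in orange, marker shape giving the embryo number and black bars the group means. The Sema3a points of SO+ embryos lie at 0.0363 and 0.0742 CPM, far under the SO− points, and the Nrp1, Nrp2 and Efnb1 points of SO− embryos lie above those of SO+ embryos.

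Differences between genotypes were estimated with edgeR over all 12067 genes that passed its filter on low counts, and all 10 guidance genes were among them. Over all tested genes, 2.35% had an adjusted p under 0.05 (1.42% higher and 0.928% lower in SO−), and 29.3% had CPM ranges that did not overlap between genotypes (14.2% higher and 15.1% lower). Of the 10 guidance genes, 3 were past the threshold (Sema3a and Nrp2 higher, Sema6a lower), 7 had ranges that did not overlap (5 higher, 2 lower), and 8 had a higher mean in SO− embryos. The median log2 fold change (SO− over SO+) was 0.59 for the 10 genes and −0.002 for all tested genes. The number past the threshold was 5 with DESeq2 and 1 with limma-voom, 2 without SO+ embryo 1, 5 without SO+ embryo 2, 1 without SO− embryo 1 or SO− embryo 2, and 4 without SO− embryo 3. Because the genes were chosen on this contrast, these counts describe the choice and nothing is read from them.

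Sema3a (ENSMUSG00000028883, chr5:13125414-13602565, GRCm38, plus strand) encodes the secreted semaphorin best known for repelling axons. It had 1 and 2 counts in SO+ embryos, against 49, 6 and 56 counts in the much shallower SO− libraries. That is 0.0363 and 0.0742 CPM in SO+ embryos, against 11.9, 5.35 and 13.5 CPM in SO− embryos. All SO− embryos were thus far above both SO+ embryos, and the gene is the one of the 10 with 3 or fewer counts in a genotype. Pooled by genotype, 3 counts of 54585267 stood against 111 of 9443681, a ratio of 214 (95% exact interval 71.3 to 1050). That interval covers counting error only, as do all floors given here, because PCR copies cannot be recognised in these libraries. In SO− embryos Sema3a made up between 1.18% and 2.5% of the summed FPKM of 20 semaphorin genes, and in SO+ embryos 0.00604% and 0.012%.

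Sema6a (ENSMUSG00000019647, chromosome 18, minus strand) encodes a membrane semaphorin that binds plexins A2 and A4. It stood at 109.8 and 112.5 CPM in SO+ embryos. In SO− embryos it stood at 59.7, 37.5 and 64.9 CPM. The ranges were well apart, with a mean of 111.2 ± 1.96 CPM (SD, n = 2) against 54 ± 14.5 (n = 3), which is 2.06-fold less. The log2 fold change was −0.98 with a standard error of 0.18. Sema6a was 28.9% and 28.8% of the summed semaphorin FPKM of SO+ embryos, the largest single contribution of these 3 semaphorins, and 18.2%, 13% and 19% in SO− embryos. Leaving out 1 embryo at a time gave values from −1.13 to −0.84.

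Sema6d (ENSMUSG00000027200, chr2:124089969-124667770, plus strand), a ligand of plexin A1, did not separate the genotypes. Its level was 9.29 and 12 CPM in SO+ embryos, against 14.1, 11.6 and 19.8 CPM in SO− embryos. SO− embryo 2 fell within the SO+ range, and the log2 fold change was 0.56 (SE 0.31). The 3 semaphorins thus each behaved differently, one near absent in SO+ embryos, one lower in SO− embryos and one overlapping.

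Both neuropilins had more transcript in SO− embryos. Nrp1 (ENSMUSG00000025810, chr8:128358604-128503363, plus strand) encodes the main receptor of Sema3a. The level was 3.16 and 11 CPM in SO+ embryos, against 24.4, 27.7 and 19.5 CPM in SO− embryos. The lowest SO− embryo lay above the higher SO+ embryo, but by ratio the SO+ embryos differed from each other more than the SO− embryos did. The log2 fold change was 1.73 (SE 0.44), and it was 2.88 without SO+ embryo 2 and 1.08 without SO+ embryo 1.

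Nrp2 (ENSMUSG00000025969, chr1:62703285-62818695, plus strand) encodes the preferred receptor of Sema3f. It stood at 3.05 and 3.86 CPM in SO+ embryos and at 15.8, 17 and 8.2 CPM in SO− embryos. The SO+ embryos were close to each other, and SO− embryo 3 was the lowest of its group yet above both. The means were 3.45 ± 0.574 (SD, n = 2) and 13.7 ± 4.77 CPM (n = 3), a ratio of 3.96, with a log2 fold change of 1.94 (SE 0.44). Leaving out 1 embryo at a time gave values from 1.76 to 2.23. The summed FPKM of both neuropilins was 0.58 and 1.45 in SO+ embryos, against 3.83, 4.26 and 2.69 in SO− embryos. Nrp1 supplied between 55.6% and 77.5% of that sum in the 5 embryos, and the shares overlapped between genotypes.

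Neuropilins signal with plexins and with VEGF receptors, and these partners were read from lists of pathway genes. These lists too were chosen with earlier results of these data known. None of the 5 tested plexins passed the threshold in edgeR's test, and 0 had an unadjusted p under 0.05, against 13.7% of all tested genes. DESeq2 and limma-voom also called 0. Plxnb2, the plexin with the highest level, stood at 129.5 and 101.1 CPM in SO+ embryos and at 118.4, 133.0 and 120.6 CPM in SO− embryos, with overlap. Plxnb1 overlapped too (log2 fold change 0.14, SE 0.18, adjusted p = 0.836 from edgeR). Plxna1 (−0.22, SE 0.20) and Plxna2 (0.24, SE 0.31) overlapped as well. Plxna3 stood at 28.6 and 17.9 CPM in SO+ embryos and at 17.1, 5.35 and 16.9 CPM in SO− embryos, without overlap (−0.69, SE 0.34, adjusted p = 0.405 from edgeR). SO− embryo 2 had 6 counts of Plxna3. These 3 were named after their values were seen. The summed plexin FPKM was 32 and 26.7 in SO+ embryos, against 28.8, 28.1 and 30 in SO− embryos, and the genotypes overlapped.

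Among 4 tested VEGF partners, Flt1, which encodes VEGF receptor 1, rose. It stood at 16.3 and 24.6 CPM in SO+ embryos and at 71.9, 63.4 and 62 CPM in SO− embryos. Every SO− embryo exceeded both SO+ embryos more than 2-fold, and the log2 fold change was 1.69 (SE 0.21, edgeR's adjusted p = 0.000892, from its quasi-likelihood F test with Benjamini-Hochberg adjustment over all genes). Without SO− embryo 2 the adjusted p was 0.0516. Kdr, which encodes VEGF receptor 2 and was named after its values were seen, stood at 0.0363 and 4.6 CPM in SO+ embryos and at 18, 17.8 and 8.44 CPM in SO− embryos, without overlap, but with an adjusted p of 0.222 from edgeR. The ligand Vegfb did not pass (log2 fold change −0.40, SE 0.20, adjusted p = 0.401 from edgeR).

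The 11 other tested semaphorins had a median log2 fold change of −0.54, with 8 lower and 3 higher in SO− embryos. The median was −0.11 without SO+ embryo 1, and 0.27 over the 5 tested with at least 10 counts in every embryo. Of the 11, 6 had ranges that did not overlap (2 higher, 4 lower), against 29.3% of all tested genes. In edgeR's test 5 had an unadjusted p under 0.05, against 13.7% of all tested genes, and 1 passed the threshold. Sema4a, a membrane semaphorin known for its part in immune cells and the retina, stood at 12.6 and 11.7 CPM in SO+ embryos and at 3.9, 2.68 and 4.1 CPM in SO− embryos. The log2 fold change was −1.70 (SE 0.38), with an adjusted p of 0.0326 from edgeR and 0.164 from limma-voom. Its genotypes did not overlap, but SO− embryo 2 had only 3 counts and the threshold was missed when SO+ embryo 1 or any SO− embryo was left out. Sema3f, the ligand of Nrp2, stood at 18.7 and 28.1 CPM in SO+ embryos and at 37.5, 43.7 and 36.4 CPM in SO− embryos (log2 fold change 0.73, SE 0.22, adjusted p = 0.136 from edgeR). Sema4c did not pass either (0.44, SE 0.21, adjusted p = 0.39). Summed over 20 genes, semaphorin FPKM was 43.3 and 44.5 in SO+ embryos, against 37.3, 32.8 and 39 in SO− embryos. Most of that difference was Sema6a, and without Sema3a, Sema6a and Sema6d the sum was 29.9 and 30.6 in SO+ embryos, against 28.3, 27 and 28.8 in SO− embryos.

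**Figure D2:**
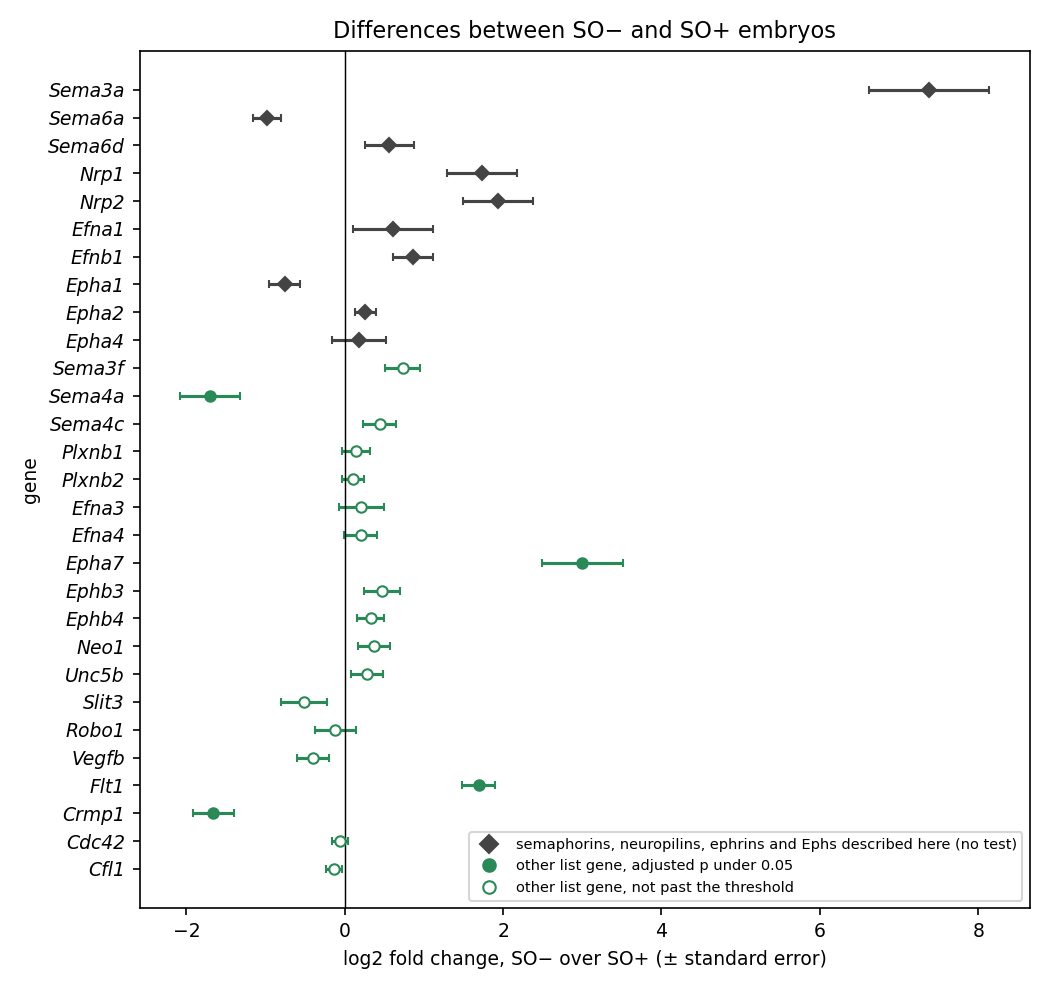
Log2 fold change of SO− over SO+ embryos with its standard error, for the 10 guidance genes (diamonds, no test) and for other list genes named by rule (circles, filled where the adjusted p was under 0.05). Sema3a lies far to the right at 7.38, a fitted value that rests on 3 counts in SO+ embryos, and among the other genes Epha7 and Flt1 lie to the right and Sema4a and Crmp1 to the left of 0.

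Of the 2 ephrins, Efnb1 was higher in all SO− embryos and Efna1 overlapped between genotypes. Efnb1 (ENSMUSG00000031217, chrX:99136130-99148991, plus strand) encodes ephrin-B1, a transmembrane ligand that forms boundaries between cell populations. It stood at 19 and 20.3 CPM in SO+ embryos and at 44.8, 37.5 and 25.1 CPM in SO− embryos. All SO− embryos were above both SO+ embryos, SO− embryo 3 by the least, and the log2 fold change was 0.86 (SE 0.25). Leaving out 1 embryo at a time gave values from 0.60 to 1.08. Efnb1 is X-linked, and transcripts of the Y-linked genes Ddx3y, Eif2s3y, Kdm5d and Uty were counted in all 5 embryos. Xist, the other gene read for embryo sex, stood at 1.45 and 8.76 CPM in SO+ embryos. In SO− embryos Xist stood at 1.22, 4.46 and 18.8 CPM. Whether embryo sex bears on Efnb1 was not tested.

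Efna1 (ENSMUSG00000027954, chr3:89271733-89281142, minus strand) encodes ephrin-A1, a ligand of Epha2 held to the membrane by a lipid anchor. Its level was 11.4 and 3.27 CPM in SO+ embryos, against 7.31, 12.5 and 14.2 CPM in SO− embryos. The SO+ embryos lay on both sides of SO− embryo 1, so the genotypes overlapped. The log2 fold change of 0.61 (SE 0.51) became −0.03 without SO+ embryo 2 and 1.77 without SO+ embryo 1, so that its direction was set by 1 library.

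Efna1 lies beside Efna3 and Efna4, and Efna4 ends at position 89338028 of the same chromosome. Efna4, the ephrin with the highest level among the others, stood at 23.3 and 21.2 CPM in SO+ embryos and at 23.6, 26.8 and 26.5 CPM in SO− embryos (adjusted p = 0.778 from edgeR). Efna3 overlapped between genotypes (adjusted p = 0.843). The 6 ephrins that are not among the 10 genes had a median log2 fold change of 0.25. All 6 were above 0, also with RLE factors and with library totals, where 49.7% of all tested genes were above 0. None of the 6 was called by edgeR, DESeq2 or limma-voom, and 1 had an unadjusted p under 0.05, against 13.7% of all tested genes. Summed ephrin FPKM was 39.9 and 36.9 in SO+ embryos, against 51.3, 51.6 and 51.6 in SO− embryos. Without Efna1 and Efnb1 the sum was 28.2 and 29.2 in SO+ embryos, against 34.3, 33.9 and 36.5 in SO− embryos. The sums of the families were not tested.

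Epha1 dominated the Eph receptors of SO+ embryos and was lower in SO− embryos. Epha1 (ENSMUSG00000029859, chr6:42358487-42373268, minus strand) encodes a receptor tyrosine kinase of the A class, found mainly in epithelia. It stood at 188.8 and 170.6 CPM in SO+ embryos and at 124.5, 60.7 and 120.6 CPM in SO− embryos. Every SO− embryo was below both SO+ embryos, SO− embryo 2 by the most. The log2 fold change was −0.76 (SE 0.20). Leaving out 1 embryo at a time gave values from −0.92 to −0.55. In exons, 236 bases of Epha1 overlap Zyx on the opposite strand, which had 12896 counts in the 5 embryos against 10878 for Epha1. Use of strand in counting is not given in the sources used here, so the assignment of reads from that overlap is uncertain.

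Epha2 (ENSMUSG00000006445, chr4:141301240-141329384, plus strand) encodes a receptor of ephrin-A ligands that is known from the early epiblast and streak. SO+ embryos had 83 and 98 CPM, and SO− embryos 105.5, 103.5 and 114.1 CPM. The ranges just failed to meet, with a ratio of means of 1.19 and a log2 fold change of 0.26 (SE 0.13). Epha2 moved from 21.1% and 25.5% of all Eph receptor FPKM in SO+ embryos to 28.9%, 36.1% and 30.5% in SO− embryos, while Epha1 moved from 57.1% and 52.8% to 40.6%, 25.2% and 38.3%. Summed over 14 receptors the level was 84.2 and 82.3 FPKM in SO+ embryos, against 78.1, 61.3 and 80.1 FPKM in SO− embryos.

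Epha4 (ENSMUSG00000026235, chr1:77367185-77515088, minus strand) encodes a receptor that binds ephrins of both classes. SO+ embryos had 10.2 and 9.32 CPM, and SO− embryos 9.74, 15.2 and 9.89 CPM. SO− embryos 1 and 3 fell between the SO+ embryos, and the log2 fold change was 0.18 (SE 0.34). SO− embryo 2, the highest, rested on 17 counts.

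**Figure D3:**
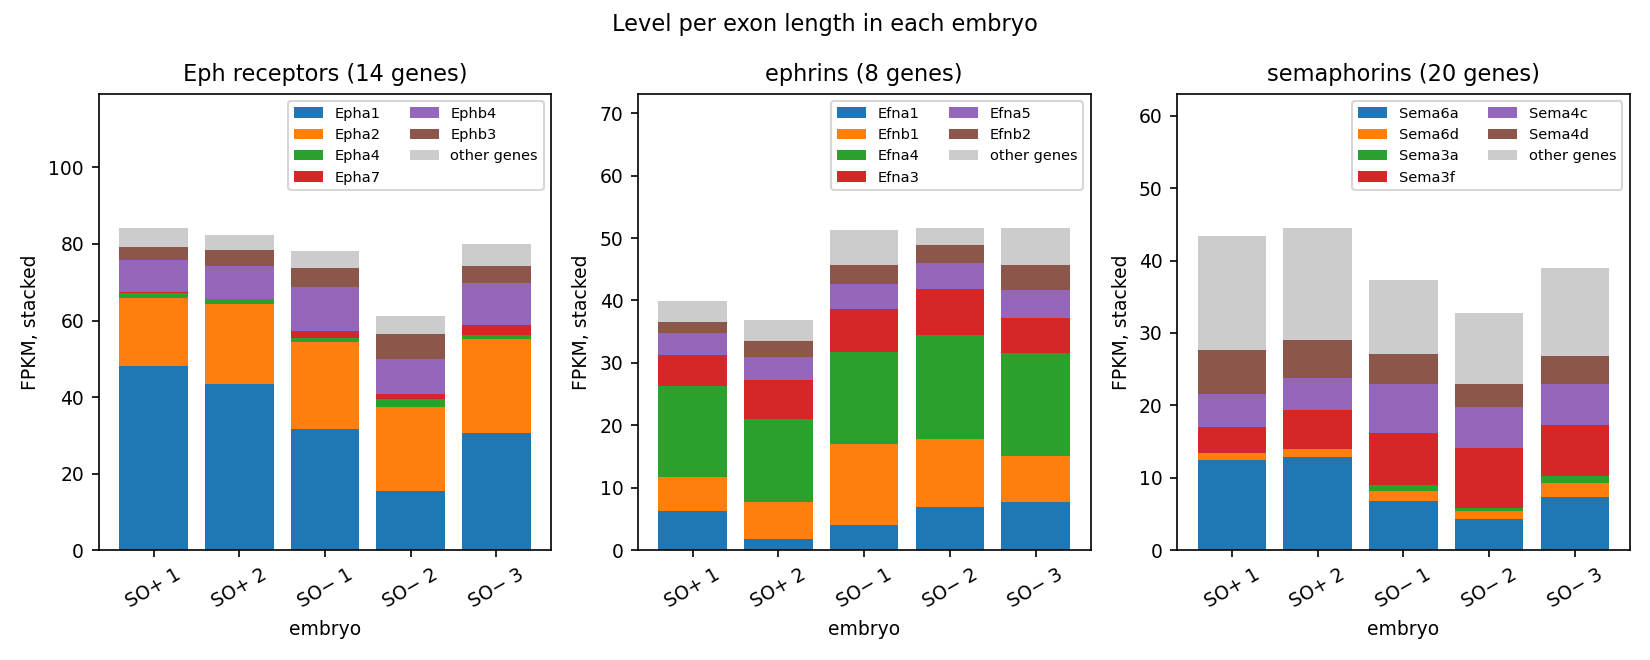
FPKM of Eph receptors, ephrins and semaphorins stacked by gene in each embryo, with the genes outside the 6 named ones of each panel in grey. The Epha1 segment takes over 50% of the Eph receptor bar in both SO+ embryos and less in all SO− embryos, the ephrin bars are taller in SO− embryos, and the Sema6a segment is shorter.

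One of the 6 other tested Eph receptors rose. Epha7, known for its graded expression in the forming brain, stood at 3.77 and 1 CPM in SO+ embryos and at 18.3, 14.3 and 23.6 CPM in SO− embryos. Its log2 fold change was 3.00 (SE 0.51, adjusted p = 0.00754 from edgeR), and no SO− embryo came near the SO+ range. The value was 4.24 without SO+ embryo 1 and 2.35 without SO+ embryo 2. The threshold was missed without SO− embryo 1 or SO− embryo 2 (adjusted p at most 0.126). Ephb4, the receptor of ephrin-B2, and Ephb3 did not pass, with log2 fold changes of 0.33 (SE 0.17, adjusted p = 0.43) and 0.47 (SE 0.23, adjusted p = 0.39).

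Over the 9 pathway lists, 107 genes besides the 10 were in the count table and 73 were tested. The lists were chosen with earlier results of these data known, so nothing is read from shares over them. Of the 73, 4 passed the threshold (5.48%, against 2.35% of all genes), 2 rising (Epha7 and Flt1) and 2 falling (Sema4a and Crmp1). In edgeR's test 21 of the 73 had an unadjusted p under 0.05, against 13.7% of all tested genes. The median log2 fold change of the 73 was 0.10. Crmp1, a cytoplasmic protein of the family that relays Sema3a signals to the cytoskeleton, stood at 124.9 and 88.3 CPM in SO+ embryos and at 30, 17 and 47.3 CPM in SO− embryos. Its log2 fold change was −1.66 (SE 0.26, adjusted p = 0.00473 from edgeR), with the threshold missed without SO− embryo 1 or SO− embryo 2 and by limma-voom (adjusted p = 0.1), and DESeq2's adjusted p at 0.0499. The other 29 tested cytoplasmic effectors did not pass in edgeR with all embryos. Of them Ablim1, an actin-binding protein, passed in DESeq2 (adjusted p = 0.0321) and in edgeR without SO− embryo 3, though its genotypes overlapped (log2 fold change 0.97). Fyn (−0.96, SE 0.31, adjusted p = 0.152 from edgeR) and Limk1 (−0.83, SE 0.23, adjusted p = 0.086) were lower without overlap. These 3 were named after their values were seen. Of the 30 tested effectors, 11 had no overlap (7 lower, 4 higher), against 29.3% of all tested genes. In edgeR's test 9 of the 30 had an unadjusted p under 0.05, against 13.7% of all tested genes. The abundant Cfl1 and Cdc42, which control actin, had log2 fold changes of −0.13 (SE 0.10, adjusted p = 0.626) and −0.06 (SE 0.10, adjusted p = 0.866).

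The netrin and slit systems, guidance cues of other families, held no gene past the threshold. The 6 tested genes of the netrin list had a median log2 fold change of 0.48, with 0 called by edgeR, DESeq2 or limma-voom and 2 at an unadjusted p under 0.05, against 13.7% of all tested genes. All 6 were above 0 with edgeR, though Draxin was not by limma-voom and Ntn1 and Draxin were not when some single embryos were left out. The receptors Unc5b (0.28, SE 0.20, adjusted p = 0.626) and Neo1 (0.37, SE 0.20, adjusted p = 0.466) had the highest levels. Of 5 tested genes of the slit list, 0 were called by the 3 tools and 1 had an unadjusted p under 0.05, to be read against the same share. Slit3 and its receptor Robo1 overlapped between genotypes, with log2 fold changes of −0.51 (SE 0.29, adjusted p = 0.476) and −0.12 (SE 0.26, adjusted p = 0.915).

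**Figure D4:**
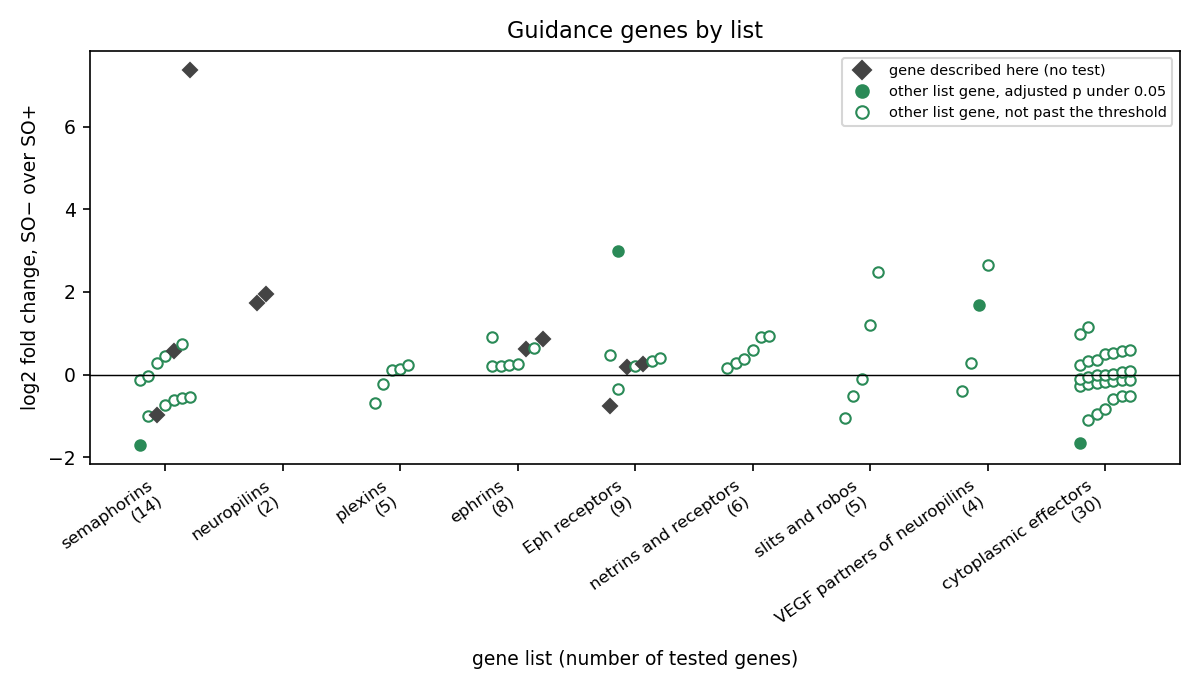
Log2 fold change of every tested gene of 9 guidance lists, with the 10 genes described as diamonds and other genes as circles, filled where the adjusted p was under 0.05. Both neuropilins, all 8 ephrins (Efna1 not when SO+ embryo 2 is left out) and the 6 genes of the netrin list (Ntn1 and Draxin not in every alternative) lie above 0, while semaphorins, Eph receptors and the 30 cytoplasmic effectors spread to both sides.

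Some single markers of the tissues in each sample also differed between genotypes. Without the markers past the threshold, each summed tissue list but that of the anterior VE overlapped between genotypes. Of 6 epiblast markers, Dnmt3b and Slc7a3 fell. The summed epiblast level was 5022.6 to 5658.6 CPM in SO+ embryos and 2759.4 to 3840.3 CPM in SO− embryos. The other 4 epiblast markers summed to 1320.7 and 1469.4 CPM in SO+ embryos and to 1268.1 to 1398.2 CPM in SO− embryos, with overlap. The 10 VE markers did not pass edgeR's test (lowest adjusted p 0.113, for Hnf4a), and their sum was 2495.8 to 2735.3 CPM in SO+ embryos and 2392.9 to 3874.3 CPM in SO− embryos. SO− embryo 3 had the lowest VE sum. It was the lowest SO− embryo for Nrp1, Nrp2 and Efnb1, as for 40.9% of the tested genes with a log2 fold change above 0, and the highest for Sema3a, Sema6d, Efna1 and Epha2, as for 26.3%. Of 4 anterior VE markers Cer1 rose. The other 3 did not pass, but they summed to 104.3 and 107.5 CPM in SO+ embryos and to 151.2 to 164.2 CPM in SO− embryos, without overlap. Of 8 streak and mesoderm markers Fgf8 rose, with summed levels of 406.3 to 624.5 CPM in SO+ and 543.3 to 712.8 CPM in SO− embryos. Without Fgf8 that sum was 268.7 and 500.9 CPM in SO+ embryos and 245.5 to 404.4 CPM in SO− embryos, and Mixl1 (log2 fold change −0.44) and Mesp1 (−0.61) did not pass. Of 8 markers of extra-embryonic ectoderm and trophoblast, Hand1 rose, and without it the list summed to 12.9 and 14.2 CPM in SO+ embryos and to 12.5 to 18.7 CPM in SO− embryos. Of 8 maternal markers, Prl8a2, Ptprc, Lyz2 and Hbb-bs were at 0 in every embryo. Des stood at 8.09 and 6.87 CPM in SO+ embryos and at 11.2, 8.03 and 10.1 CPM in SO− embryos. Dcn was also counted in every embryo, and Cd74 and Hba-a1 in some. The list summed to 9.98 and 13 CPM in SO+ embryos and to 8.92 to 13.6 CPM in SO− embryos, with overlap. The part of these tissues in the differences of the guidance genes was not tested.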

How the data were processed

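SmartSeq2 libraries, without molecular identifiers, were made from 5 single embryos (2 SO+, 3 SO−). The authors trimmed adapters with cutadapt, aligned reads with STAR to GRCm38/mm10, counted them per Ensembl gene with HTSeq and deposited raw counts that were not normalized. Groups and replicate numbers came from the labels, and same-numbered embryos are different animals.

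Counts were fitted over all genes with edgeR 4.0.16 in R 4.3.3 (TMM, filterByExpr, quasi-likelihood F test, Benjamini-Hochberg, threshold 0.05). Each standard error is the size of the log2 fold change over the square root of its F. Exon lengths came from GENCODE M21, which matched 99.3% of genes. A floor of 3 counts equals 0.109 CPM in SO+ embryo 1 and 2.68 CPM in SO− embryo 2. The 10 genes, the 9 pathway lists (118 genes, 1 not matched) and the marker lists were chosen with earlier results of these data known. Besides the 10, the text names list genes past the threshold, the 2 with the highest FPKM in each list, and Pou5f1. As a check of the code, the test was also run on simulated counts with planted changes and the means, totals and fitted dispersions of these data. The simulation held no index difference, and its recovery rate is not reported here. Alternatives were DESeq2 1.42.0, limma-voom (limma 3.58.1), other scaling and filters, the replicate number as a block, each embryo left out and, for FPKM, other lengths. Sums without the 10 genes or without called markers were added after the data were seen. Sequences were read from RefSeq tables.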

Additional observations from a re-analysis of the deposited data

How the results depend on the processing

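Over all genes, 283 passed the threshold with edgeR, 393 with DESeq2 and 91 with limma-voom, and between 35 (without SO− embryo 2) and 573 (without SO+ embryo 2) when an embryo was left out. With 180 calls without SO+ embryo 1 and 46 without SO− embryo 1, every one of these libraries moved the count by over 1.5 times, and SO− embryo 3 did not (263). Of the list genes outside the 10, 4 passed with edgeR and 2 with limma-voom, and between 0 (without SO− embryo 2) and 9 (without SO+ embryo 2) when an embryo was left out, with 1 without SO− embryo 1. With the replicate block, 929 genes and 13 list genes passed. Embryos with the same number are different animals. Their deviations from the group mean correlated at 0.0154 and 0.112, and those of SO+ embryo 1 and SO− embryo 3 at 0.128. With 2 SO+ embryos these deviations mirror each other, so the check cannot decide whether same-numbered embryos share more than a number. The sign turned for Efna1 (−0.03) and for Plxnb2 (−0.08) and Cdc42 (0.01) without SO+ embryo 2, and for Plxnb1 with the replicate block (−0.00) and without SO− embryo 3 (−0.02). When an embryo was left out, Efna1 ranged from −0.03 to 1.77, Plxnb2 from −0.08 to 0.28, Plxnb1 from −0.02 to 0.29 and Cdc42 from −0.14 to 0.01. The cause was not tested. Of the log2 fold changes of named genes recomputed, 323 kept direction and side of the threshold, 19 lost the call, 11 gained it and 5 reversed. Sema3a and Sema4a could not be fitted with the filter of 10 counts in every embryo. Depth limits SO− embryo 2 most.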

Other observations

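Of the listed guidance genes, 34 were too low for the filter. Pooled by genotype, 17 of them were lower in SO− embryos, 13 were higher and 4 had no counts, and those named here were picked after their values were seen. Flt4, which encodes VEGF receptor 3 and binds Vegfc, had 115 counts over the SO+ embryos and 2 over the SO− embryos, or 2.11 and 0.212 CPM pooled. Ngef, a guanine nucleotide exchange factor that acts under EphA receptors, had 89 and 3 counts (1.63 and 0.318 CPM pooled), and the netrin receptor gene Unc5a had 88 and 4 (1.61 and 0.424 CPM). Sema4f had 69 counts and 1 count. Epha8 had 34 counts over the SO+ embryos and 0 over the SO− embryos, which against a floor of 3 counts over the group is at least 1.96-fold lower. In the other direction, Pgf, a ligand of Flt1, had 29 counts over the SO+ embryos and 20 over the SO− embryos (0.531 and 2.12 CPM pooled), Robo3 had 28 and 13 (0.513 and 1.38 CPM), Unc5c had 2 and 10 (0.0366 and 1.06 CPM), and Epha3 had 0 and 7. Vav3 (2.09 and 2.01 CPM pooled) and Plxnc1 (1.23 and 1.16 CPM) had close pooled levels. These genes had no test, and the SO− totals allow few counts for any of them.

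The SO+ embryos differed from each other in some of the 10 genes. Nrp1 was 3.16 CPM in SO+ embryo 1 and 11 CPM in SO+ embryo 2, while Efna1 ran the other way at 11.4 and 3.27 CPM. Over all tested genes the median ratio of the higher to the lower SO+ embryo was 1.17. Some streak and mesoderm markers also differed between these embryos, with Mesp1 at 20.9 and 63.5 CPM, Lefty2 at 25.6 and 92.5 CPM and Mixl1 at 158.8 and 282.4 CPM. Others of that list were close, with T at 38.6 and 35.6 CPM, Snai1 at 24.7 and 25.2 CPM and Fgf8 at 137.6 and 123.6 CPM.

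Among SO− embryos, remaining Pou5f1 was lowest in embryo 2 and highest in embryo 3. Sema3a, Sema6a, Sema6d and Epha2 had that same order of embryos, as did 21.1% of all tested genes. Nrp1 and Nrp2 had the reverse order, as did 19.1% of all tested genes.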
